A study of Mus musculus with 12 samples.

Results

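The genes of 7 neuropeptide precursors were followed across the 4 groups of mice: the opioid precursors Penk and Pdyn, the tachykinin precursors Tac1 and Tac2, and Adcyap1, Nts and Cort. They were chosen by name, as 7 of the 35580 genes in the table, and their transcripts were summed per gene. All 7 were among the 18434 genes that were tested. RNA of the whole hippocampus was sequenced from 12 male C57BL/6 mice (C57BL/6J in the study's methods) at postnatal day 70, with 3 mice per group. Control mice came from dams that drank water and were left with the dam. Ethanol mice came from dams that chose between water and 10% ethanol in water while pregnant, and in the study's methods for some days after birth as well. Stress mice came from water-drinking dams and were isolated on each of postnatal days 2 to 14, for 3 hours at a time. Ethanol + stress mice had both exposures. Ethanol intake was voluntary, and the study's methods divided each litter between separated and undisturbed pups. The labels do not give the litter of a mouse, so p values here measure the spread between these mice and not between litters.

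A neuropeptide is made as part of a longer precursor protein, which is cut mostly at pairs of basic residues inside dense core vesicles and released from neurons beside the fast transmitters. Penk gives rise to enkephalins, ligands of delta and mu opioid receptors, and Pdyn to dynorphins, ligands of the kappa receptor. Granule cells of the dentate gyrus carry dynorphin in their mossy fibres. Substance P and neurokinin A come from Tac1 and neurokinin B from Tac2. PACAP, from Adcyap1, neurotensin, from Nts, and cortistatin, a relative of somatostatin made by interneurons, come from the other 3 genes.

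The precursors differ in how many active peptides they hold, and the coding sequences of those peptides are shown to make clear what the transcripts measured here encode. They were read from GENCODE vM21 transcripts of the mouse build GRCm38, 5′ to 3′ on the coding strand. Capitals mark the codons of the peptide, and the small letters on either side are flanking coding bases or, behind the last codon of Cort, its stop codon and the bases after it. The main Penk transcript encodes 268 residues with 6 copies of Met-enkephalin and 1 of Leu-enkephalin, and the main Pdyn transcript encodes 248 residues with 3 copies of Leu-enkephalin, each opening a longer dynorphin or neoendorphin peptide. The lines give the first Met-enkephalin and the Leu-enkephalin of Penk, and the 3 copies of Pdyn.
Penk, Met-enkephalin copy 1, chr4:4134334-4134348, minus strand: aagaagTACGGAGGCTTCATGaaacggtac
Penk, Leu-enkephalin, chr4:4133941-4133955, minus strand: aagaggTATGGGGGCTTCCTGaagcgcttt
Pdyn, copy 1, chr2:129688238-129688252, minus strand: aaacgcTATGGCGGCTTTTTGcgcaaatac
Pdyn, copy 2, chr2:129688130-129688144, minus strand: aaacgcTATGGGGGCTTCCTGcggcgcatt
Pdyn, copy 3, chr2:129688073-129688087, minus strand: aagcgcTATGGTGGTTTCCTGcggcgtcag
All 7 enkephalin copies of Penk lie in exon 2 of its main transcript and all 3 of Pdyn in exon 4. A codon pair for basic residues stands before each of them, and behind 5 of the 7 copies of Penk and all 3 of Pdyn.

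In the main transcripts of the tachykinin precursors and the remaining 3 genes, each peptide that was sought occurs once. The stretch of Adcyap1 is PACAP38 and that of Cort is cortistatin-14. Other peptides of these precursors were not sought.
Tac1, substance P, exon 3, chr6:7556732-7556764, plus strand: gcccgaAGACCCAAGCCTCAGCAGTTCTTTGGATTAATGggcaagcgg
Tac1, neurokinin A, exon 6, chr6:7559101-7559130, plus strand: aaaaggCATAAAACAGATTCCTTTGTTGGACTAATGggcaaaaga
Tac2, neurokinin B, exon 5, chr10:127729116-127729145, plus strand: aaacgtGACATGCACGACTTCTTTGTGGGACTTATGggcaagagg
Adcyap1, PACAP, exon 5, chr17:93203990-93204103, plus strand: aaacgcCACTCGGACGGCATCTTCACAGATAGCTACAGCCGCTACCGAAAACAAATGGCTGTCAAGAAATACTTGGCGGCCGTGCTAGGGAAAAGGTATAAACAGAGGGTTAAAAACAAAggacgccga
Nts, neurotensin, exon 4, chr10:102482355-102482393, minus strand: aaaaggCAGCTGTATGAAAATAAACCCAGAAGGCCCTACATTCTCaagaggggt
Cort, cortistatin, exon 2, chr4:149125267-149125308, minus strand: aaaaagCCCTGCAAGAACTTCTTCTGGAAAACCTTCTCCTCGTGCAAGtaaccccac
The tachykinins are each followed by a glycine codon and a basic pair, the signal for an amidated end, and so is PACAP. The cortistatin codons run up to the stop codon.

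Expression is given in TPM, the relative abundance of a transcript corrected for its length. Over the 12 libraries Penk had the highest mean of the 7 genes, 34.0 ± 5.37 TPM (SD, n = 12), followed by Nts with 20.8 ± 2.97, Tac1 with 19.6 ± 2.79 and Cort with 17.7 ± 3.79 TPM. Pdyn averaged 9.17 ± 1.32 TPM, Tac2 8.46 ± 2.53 and Adcyap1 5.64 ± 1.19. Penk thus lay above 75.1% of the tested genes and Adcyap1 above 40.7%. In this order only the step from Penk to Nts held in every library. Nts lay above Tac1 in 7 of 12 libraries, Tac1 above Cort in 8, Cort above Pdyn in 11, Pdyn above Tac2 in 9 and Tac2 above Adcyap1 in 11, so these neighbours overlapped. Among all 44 neuropeptide precursors listed, Cck at 762, Sst at 355, Npy at 147 and Grp at 45.2 TPM stood above Penk, which had rank 5. Nts, Tac1 and Cort took ranks 8 to 10, Pdyn 12, Tac2 14 and Adcyap1 16, and Vip (29.7 TPM), Agt (25.6), Apln (13.2), Pomc (8.82) and Nmb (7.90) lay between them. The place of Pomc rests on ethanol replicate 3 with 41.9 TPM, since the mean of the other 11 libraries was 5.81 TPM, below Tac2.

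**Figure D1:**
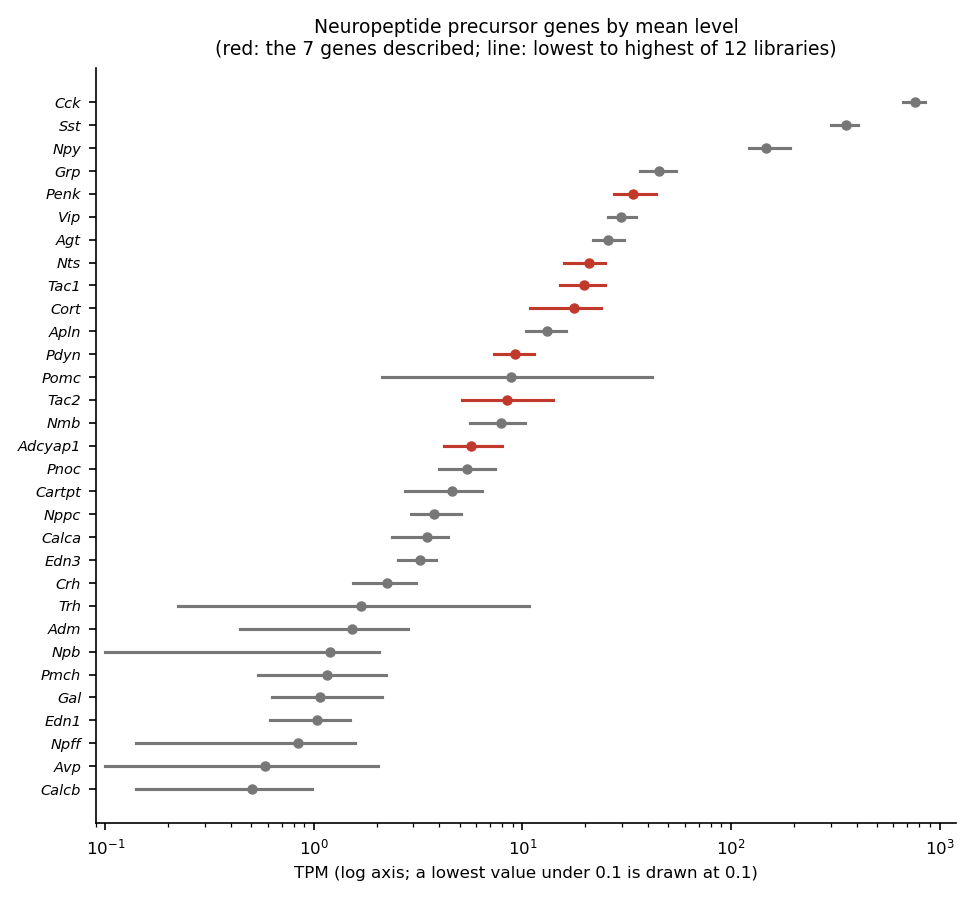
Mean level of each neuropeptide precursor gene with a mean of at least 0.5 TPM, on a logarithmic axis, with a line from the lowest to the highest of the 12 libraries. The 7 genes described are red: Penk, at 34.0 TPM, came after Cck, Sst, Npy and Grp, and Adcyap1 was sixteenth with 5.64 TPM.

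A first set of 3 comparisons placed the ethanol, stress, and ethanol + stress mice against control, and these share the 3 control mice. The remaining contrasts were the interaction of ethanol and stress, the ethanol effect averaged over mice with and without stress, and the stress effect averaged over mice with and without ethanol. A gene was called at an unadjusted p under 0.01, a rule that does not correct for the number of genes tested. None of the 7 genes was called in the ethanol mice by limma, where 0.678% of all tested genes were, nor in the stress mice, where 0.51% were, nor in the ethanol + stress mice, where 0.971% were. None was called for the interaction (0.461% of all genes) or for the stress average (0.586%) either. The ethanol average held the single call, a lower level of Adcyap1, against 1.12% of all genes. In bulk tissue fewer cells of a type and less RNA per cell cannot be told apart. At an unadjusted p under 0.05 the counts were the same, 0 of 7 in these contrasts and 1 of 7 for the ethanol average, where 5.79% of all genes passed. In the other contrasts 2.40% to 5.37% of all genes did.

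**Figure D2:**
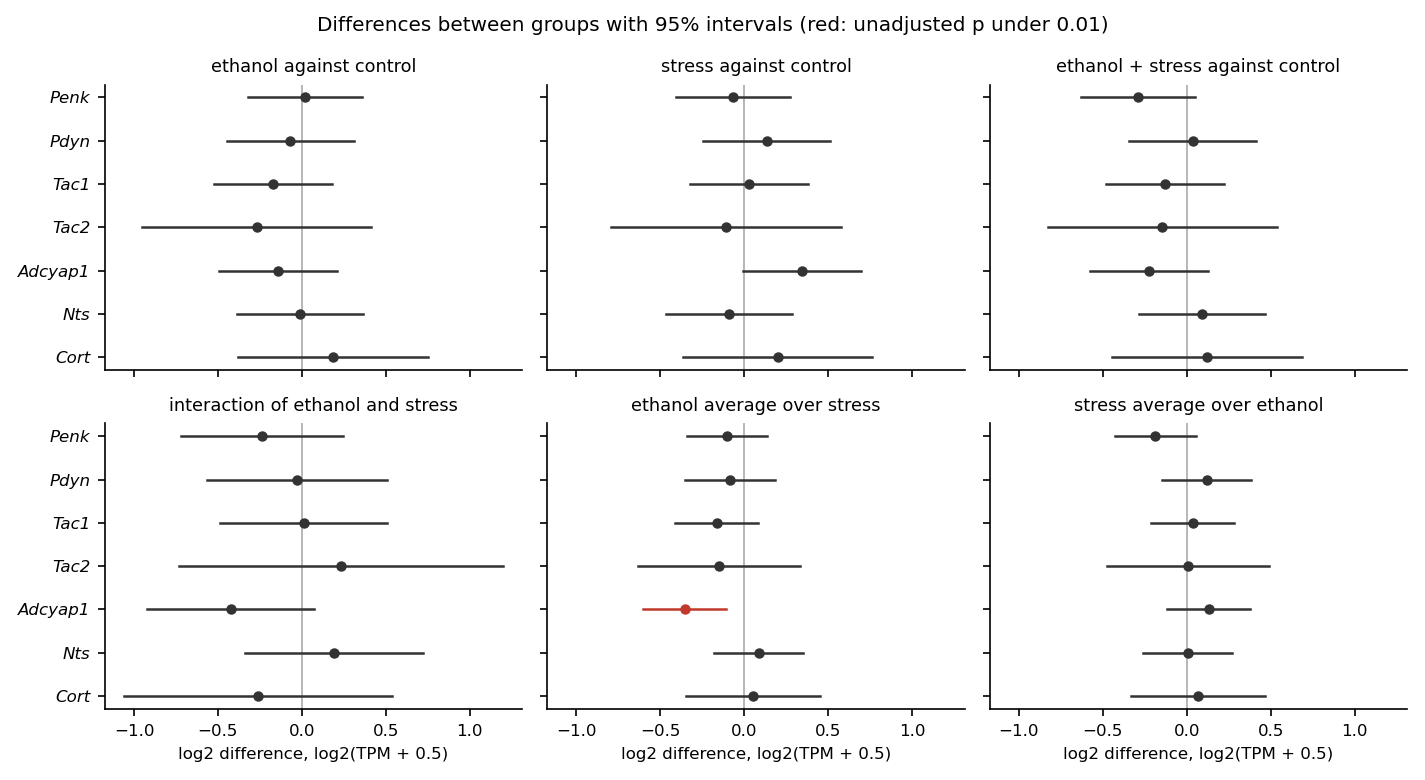
Difference of each gene in the 6 contrasts, on the log2(TPM + 0.5) scale, as a point with its 95% interval. Only the interval of Adcyap1 for the ethanol average, drawn in red, lay wholly on one side of 0, and the intervals of Tac2 were the widest.

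Seen one group at a time, the differences were small and of mixed sign. On the log2(TPM + 0.5) scale the members lay between -0.27 and 0.19 in ethanol, with a median of -0.07 beside 0.02 for all genes. In stress mice they lay between -0.11 and 0.34, with a median of 0.03 beside 0.00, and in ethanol + stress mice between -0.29 and 0.12, with a median of -0.13 beside 0.02. The adjusted p values of limma were at least 0.997 for ethanol, 0.9998 for stress and 0.791 for ethanol + stress mice. The 95% intervals show what these libraries could have missed. Over the 7 genes they reached from 0.517-fold to 1.68-fold for ethanol, from 0.577-fold to 1.70-fold for stress and from 0.563-fold to 1.61-fold for ethanol + stress mice.

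The values of the treated mice lay wholly outside the control range for 0 of the 7 genes in ethanol, where 8.25% of all tested genes had groups that did not overlap. For stress this was 1 gene of 7 beside 7.2% of all genes, and for ethanol + stress 1 of 7 beside 10.2%. The gene was Adcyap1 both times.

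Penk, the enkephalin precursor, lies on chromosome 4 at 4133531 to 4138819, on the minus strand. Its level was 43.7, 31.1 and 33.4 TPM in the 3 control mice, 39.1, 30.5 and 39.3 TPM after ethanol, 33.1, 29.1 and 40.7 TPM after stress and 28.8, 27.4 and 31.2 TPM after both. The ethanol + stress mice were the closest together and lay at the low end, but the highest of them stood just above the lowest control. The group means were 36.0 ± 6.70, 36.3 ± 5.05, 34.3 ± 5.89 and 29.1 ± 1.90 TPM (SD, n = 3 each). The difference of ethanol + stress from control was -0.29 on the log2 scale (SE 0.16, adjusted p = 0.791 in limma), with a 95% interval of 0.646-fold to 1.04-fold. Control replicate 1 held the highest Penk value of the 12 libraries, and without it the difference was -0.15, while leaving out any other library gave -0.39 to -0.25.

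Pdyn, the dynorphin precursor, lies on chromosome 2 at 129686565 to 129699844, on the minus strand. It stood at 8.25, 11.3 and 7.59 TPM in control mice, 8.62, 7.31 and 9.71 TPM after ethanol, 10.8, 9.96 and 8.84 TPM after stress and 10.3, 9.70 and 7.71 TPM after both. All 4 groups overlapped, and both the highest and one of the lowest values came from control mice. Its largest difference among the 3 groups was 0.13 in stress (SE 0.17, adjusted p = 0.9998 in limma), with an interval of 0.844-fold to 1.42-fold. It was 0.30 without control replicate 2 and 0.02 without control replicate 3, and between 0.07 and 0.21 without any 1 of the other libraries compared. Both opioid precursors are also strongly made in the striatum, so markers of that tissue are given beside them. The 10 striatum markers, none of them at 0 in every library, summed to 75.1 to 84.5 TPM in control mice, 71.4 to 90.6 after ethanol, 83.5 to 97.8 after stress and 75.7 to 102 after both. No striatum marker was called in any contrast, and their part in the opioid values was not tested.

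**Figure D3:**
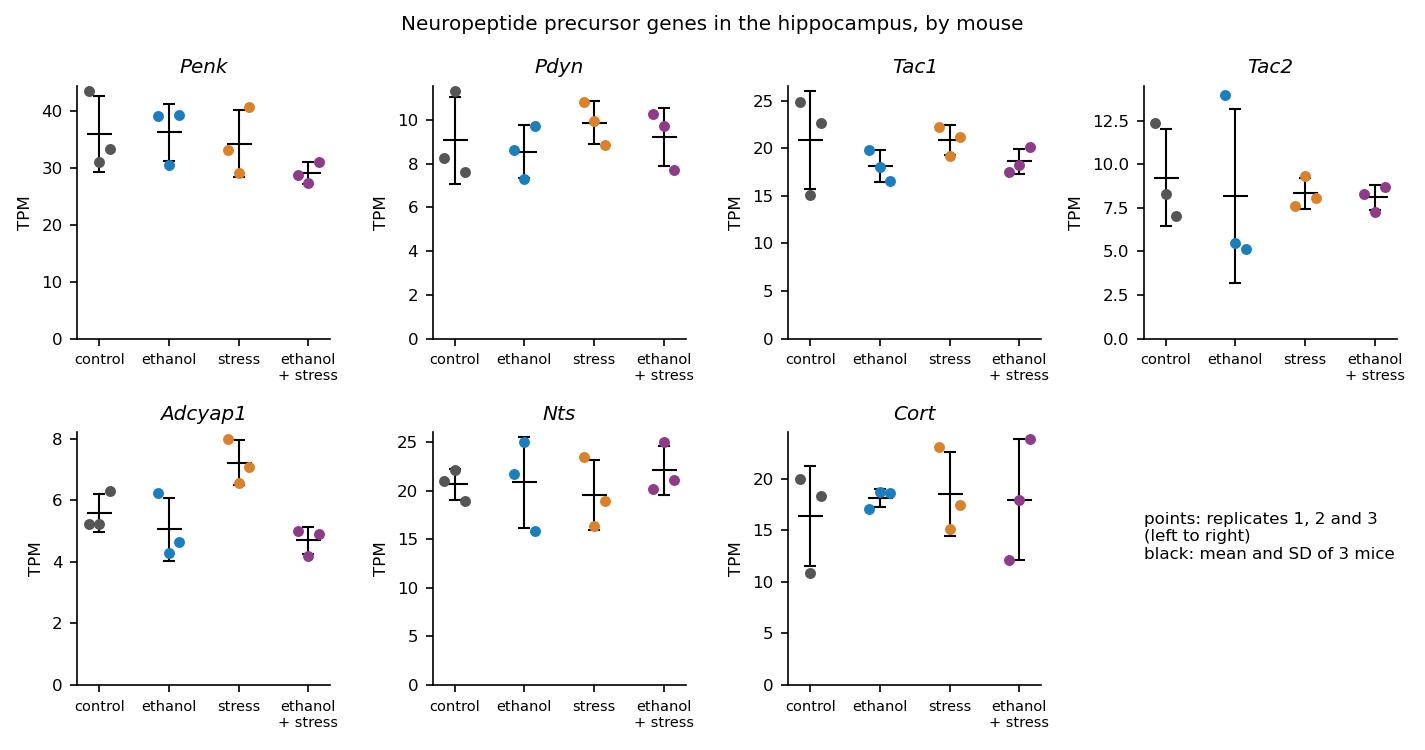
Level in TPM of each of the 7 genes in every mouse, with points for replicates 1 to 3 from left to right and black marks for the mean and SD of 3 mice. The 3 stress values of Adcyap1 sit above those of the other groups, and in the other 6 panels every treated group overlaps the controls.

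Tac1, which encodes substance P, lies on chromosome 6 at 7554879 to 7565834. It measured 24.9, 15.1 and 22.6 TPM in control mice, 19.9, 18.1 and 16.5 after ethanol, 22.3, 19.2 and 21.2 after stress and 17.6, 18.3 and 20.1 after both. Control replicate 2 was the lowest of the 12 libraries and control replicate 1 the highest, so the controls enclosed all the treated mice. The difference was -0.17 for ethanol (SE 0.16, adjusted p = 0.997), 0.03 for stress and -0.13 for ethanol + stress mice by limma. These values moved with the library left out and with the scaling. Without control replicate 2 the ethanol difference was -0.38 and the ethanol average -0.27, and both were then called, while stress moved to -0.18 and ethanol + stress to -0.34. The ethanol difference was -0.03 without control replicate 1, -0.10 without control replicate 3 and -0.11 without ethanol replicate 3, and was not called. With the length trend removed the ethanol difference was -0.26 and that of ethanol + stress -0.27, and with a common total they were -0.25 and -0.26.

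Tac2, which encodes neurokinin B, lies on chromosome 10 at 127724478 to 127731768. Control mice had 12.4, 8.32 and 7.03 TPM, with 14.0, 5.48 and 5.15 after ethanol, 7.59, 9.34 and 8.05 after stress and 8.28, 7.29 and 8.72 after both. The ethanol group thus held the highest library of all 12 and the 2 lowest. The difference of ethanol from control was -0.27 (SE 0.31, adjusted p = 0.997 in limma), and it became -0.71 and was called once ethanol replicate 1 was left out. It was -0.03 without ethanol replicate 3, -0.05 without control replicate 1 and -0.07 without ethanol replicate 2, and -0.32 and -0.44 without control replicates 2 and 3, with no call in these fits. The medial habenula, which lies near the hippocampus, makes much neurokinin B. Its 7 markers, none at 0 in every library, summed to 22.7 TPM in control replicate 1 and 19.8 TPM in ethanol replicate 1, the libraries with the highest Tac2, against 9.56 to 21.3 TPM in the other libraries. Gpr151, a receptor gene of habenular neurons, stood at 3.71 and 2.97 TPM in these libraries, and its highest value was 4.41 TPM in stress replicate 2, where Tac2 was 9.34 TPM. The part of habenular tissue in the Tac2 values was not tested.

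Adcyap1, the PACAP precursor, lies on chromosome 17 at 93199168 to 93206535 and has a single transcript of 3392 nt. Control mice had 5.24, 5.22 and 6.30 TPM, ethanol mice 6.23, 4.30 and 4.64, stress mice 8.01, 6.56 and 7.09, and ethanol + stress mice 5.003, 4.20 and 4.91. All 3 stress mice lay above the other 9 libraries, and all 3 ethanol + stress mice lay below the controls. The group means were 5.59 ± 0.617 TPM in control mice, 5.05 ± 1.03 after ethanol, 7.22 ± 0.731 after stress and 4.70 ± 0.440 after both (SD, n = 3 each). By limma the stress difference was 0.34 (SE 0.16, adjusted p = 0.9998), with an interval of 0.995-fold to 1.62-fold, and the ethanol + stress difference was -0.22 (SE 0.16, adjusted p = 0.791), with an interval of 0.671-fold to 1.09-fold. Neither was called. The ethanol + stress difference was -0.14 without control replicate 3 and -0.35 with a common total, and the stress difference kept between 0.27 and 0.43 under its 16 alternatives.

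Averaged over mice with and without stress, Adcyap1 was 0.782-fold in ethanol mice (95% interval 0.658 to 0.928), a log2 difference of -0.36 (SE 0.11) that was called but had an adjusted p of 0.76 in limma. The difference of ethanol from control was -0.14, so most of the average came from the stressed mice, where the groups stood at 4.70 and 7.22 TPM. The interaction, which tests whether the ethanol difference depended on stress, was -0.42 (SE 0.23, adjusted p = 0.99998) and was not called. The call for the ethanol average was lost when the trend over transcript length was removed (-0.34), and in 10 of the 12 fits without 1 library. Those 12 fits gave -0.43 to -0.31. The call held without ethanol replicate 1 and without stress replicate 2.

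Values of other gene groups are given beside those of Adcyap1. All 5 blood markers (Hba-a1, Hba-a2, Hbb-bs, Hbb-bt and Alas2) were called higher in the ethanol average, by 0.63 to 0.88 on the log2 scale. Of all genes 1.12% were called there, in either direction. They summed to 1603 to 2022 TPM in control and 2454 to 6815 TPM in the mice of both ethanol groups, with 2593 to 3392 TPM in stress mice. Immediate early genes, which neurons switch on with activity, summed to 296 to 380 TPM in control and 169 to 280 TPM in stress mice. After ethanol alone they summed to 219 to 396 TPM. In ethanol + stress mice, where Adcyap1 was below the controls, they summed to 179 to 315 TPM. In stress mice 11 of 12 of these genes lay below 0 (median -0.53), and 1 was called lower, Nr4a2, beside 0.51% of all genes. In ethanol + stress mice 11 of 12 lay below 0 as well (median -0.57), with none called. In the stress average 3 of 12 were called lower, beside 0.586% of all genes. These were Fos (-1.12, SE 0.36), Nr4a1 (-0.75, SE 0.23) and Dusp1 (-0.66, SE 0.18). The 8 choroid plexus markers summed to 622 to 1850 TPM in control, 41.3 to 3541 after ethanol, 1664 to 5296 after stress and 209 to 7257 TPM after both. All 8 lay above 0 in stress mice (median 1.10) and below 0 in the ethanol average (median -0.79), as did Adcyap1. In ethanol + stress mice all 8 again lay above 0 (median 0.38), where Adcyap1 was below the controls. None of the 8 was called in any contrast. The part of blood, of activity genes and of choroid plexus in the Adcyap1 values was not tested.

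Nts, the neurotensin precursor, lies on chromosome 10 at 102481756 to 102490486, on the minus strand. It measured 20.96, 22.1 and 18.9 TPM in control mice, 21.7, 25.0 and 15.8 after ethanol, 23.5, 16.3 and 18.9 after stress and 20.2, 25.0 and 21.1 after both. The groups overlapped throughout, and the highest values were those of ethanol replicate 2 and ethanol + stress replicate 2. Its differences from control were -0.01, -0.09 and 0.09 (SE 0.17 each, adjusted p from 0.8901 to 0.9998 in limma). These 2 libraries were also among the 3 with the largest sums of deposited values, 1173650 and 1126490 against 889222 to 1024268 in the 9 smaller ones, and the Nts difference of ethanol + stress turned from 0.09 to -0.02 once the trend over transcript length was removed.

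Cort, the cortistatin precursor, lies on chromosome 4 at 149125034 to 149126763, on the minus strand. It stood at 20.0, 10.9 and 18.3 TPM in control mice, 17.1, 18.7 and 18.6 after ethanol, 23.1, 15.1 and 17.5 after stress and 12.1, 17.9 and 23.8 after both. Ethanol mice were close together inside the control range, and control replicate 2 was the lowest of the 12 libraries. The differences were 0.19 for ethanol, 0.20 for stress and 0.12 for ethanol + stress mice (SE 0.26 each, adjusted p from 0.902 to 0.9998 in limma). The first and last of these became 0.06 and -0.08 without the length trend. Without control replicate 2 all 3 were below 0, at -0.08, -0.06 and -0.14.

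How closely the mice of a group agreed differed between the genes, and so did the number of reads behind them. Tac2 rested on a median of 32.8 read pairs per library, Cort on 73.7 and Penk on 255, by the read pairs recovered from the values. The spread between mice of a group was 13.0% of the mean for Adcyap1 and between 14.7% and 15.9% for Tac1, Penk, Pdyn and Nts. It was 24.4% for Cort and 34.4% for Tac2. Counting alone gives 17.2% for Tac2, 11.8% for Cort and 5.93% to 8.63% for the other 5 genes. These are values pooled over the 4 groups, and in single groups the spread could be smaller, with 8.32 ± 0.905 TPM for Tac2 after stress and 18.1 ± 0.911 TPM for Cort after ethanol (SD, n = 3 each).

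**Figure D4:**
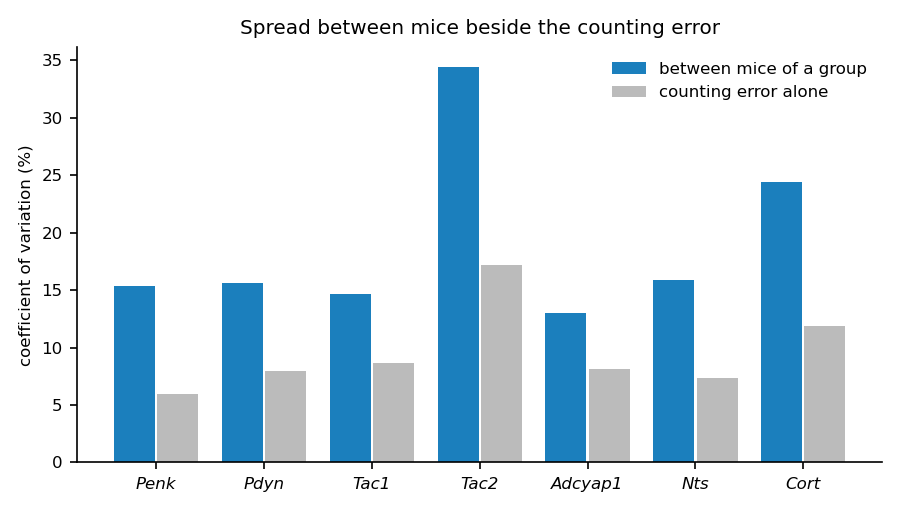
Coefficient of variation between mice of a group, pooled over the 4 groups (blue), beside that expected from the number of read pairs alone (grey), in percent. Tac2 and Cort have the highest bars of both kinds, at 34.4% and 24.4% between mice.

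The 7 genes have 17 transcripts in the table, of which 10 were tested, and none was called against control by limma, nor had any an unadjusted p under 0.05. The share of all tested transcripts called was 1.25% for ethanol, 0.918% for stress and 1.22% for ethanol + stress against control. The lowest adjusted p was 0.889 (limma), for the longer Penk transcript in ethanol + stress mice, with a log2 difference of -0.32 (SE 0.20). That transcript, ENSMUST00000070375.7 with all 7 enkephalin copies, held 67.2% ± 6.85 of Penk expression in control mice, 61.7% ± 5.90 after ethanol, 62.2% ± 1.35 after stress and 65.6% ± 1.97 after both (SD, n = 3 each). The rest belonged to ENSMUST00000133567.1, whose annotation ends at 4134112, between the third copy and the next. Its coding part runs up to that end without a stop codon, so the annotated transcript may be incomplete. Its share therefore does not show RNA that encodes only 3 copies. Of Tac1, 58.3% of the summed values went to ENSMUST00000185187.7, of 130 residues, and 39.4% to ENSMUST00000184986.1, of 115 residues, which both hold substance P and neurokinin A. ENSMUST00000090679.8, which holds substance P without neurokinin A, had 1.77% and was at 0 in 9 of the 12 libraries. The 130-residue form took 61.3% ± 1.38 of Tac1 in control mice, 62.2% ± 2.94 after ethanol, 53.6% ± 7.10 after stress and 56.4% ± 6.40 after both. Reads that fit several transcripts are divided between them by an estimate, which adds an error that these SD do not separate. Of Pdyn, 90.8% lay in ENSMUST00000028883.11, and of Tac2 99.2% in ENSMUST00000026466.4.

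The receptors of these peptides were measured in the same libraries, and all 17 listed passed the filter. The highest were Sort1, a sorting receptor that also binds neurotensin, with a mean of 149 TPM, the neurotensin receptor Ntsr2 with 102 TPM and the PACAP receptor Adcyap1r1 with 55.9 TPM. The opioid receptors were lower, with 4.49 TPM for Oprd1, 2.69 for Oprm1 and 0.649 for Oprk1, and of the tachykinin receptors Tacr3 had 2.20, Tacr1 0.349 and Tacr2 0.165 TPM. Somatostatin receptors, which cortistatin also binds, ranged from 0.122 TPM for Sstr5 to 23.5 TPM for Sstr4.

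One receptor was called, the mu opioid receptor gene Oprm1, lower in the ethanol average, 1 of 17 beside 1.12% of all genes. It stood at 4.32, 3.20 and 3.68 TPM in the controls, 1.92, 1.68 and 2.76 after ethanol, 1.78, 2.86 and 4.28 after stress and 2.10, 1.48 and 2.24 after both. Every mouse of both ethanol groups lay below every control mouse, while the stress mice spread over both. Of all genes, 8.25% did not overlap between ethanol and control mice and 10.2% between ethanol + stress and control mice, in either direction. The share of genes below the controls in both groups at once was not counted. The log2 difference of the ethanol average was -0.58 (SE 0.19, adjusted p = 0.76 in limma). Whether this call holds under other processing or without single libraries is not given. The differences from control were -0.71 in ethanol and -0.80 in ethanol + stress mice (SE 0.27, adjusted p of 0.997 and 0.791), and these were not called. In the ethanol average 6 of 7 medial habenula markers (median -0.14) and 9 of 12 interneuron markers (median -0.09) also lay below 0, with none called, and the 5 blood markers were called higher. In ethanol + stress mice 6 of 7 habenula markers lay below 0 (median -0.29), and in ethanol mice 2 of 7 (median 0.04). The part of these tissues in the Oprm1 values was not tested.

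In ethanol + stress mice the median over the 17 receptors was -0.27 beside 0.02 for all genes, with 15 of 17 below 0, and 3 had an unadjusted p under 0.05 in limma (5.37% of all genes) but none was called. The receptors summed to 332 and 352 TPM in ethanol + stress replicates 2 and 3 and to 329 TPM in ethanol replicate 2, the libraries with the largest sums of deposited values. Ethanol + stress replicate 1 and stress replicate 2, with 422 TPM each, and ethanol replicate 3, with 440 TPM, lay above the 406 to 409 TPM of the controls. The part of single libraries in the median was not tested. The 3 genes included Ntsr1, the high-affinity neurotensin receptor, with a log2 difference of -0.63 (SE 0.23), and Sstr1 with -0.39 (SE 0.16), both with an adjusted p of 0.791. In ethanol mice the median was -0.11 with 12 of 17 below 0, and in stress mice -0.09 with 14 of 17 below 0, again with no receptor called. Adcyap1r1, the receptor of the peptide from Adcyap1, had differences of -0.09, -0.02 and -0.10 in the 3 groups.

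**Figure D5:**
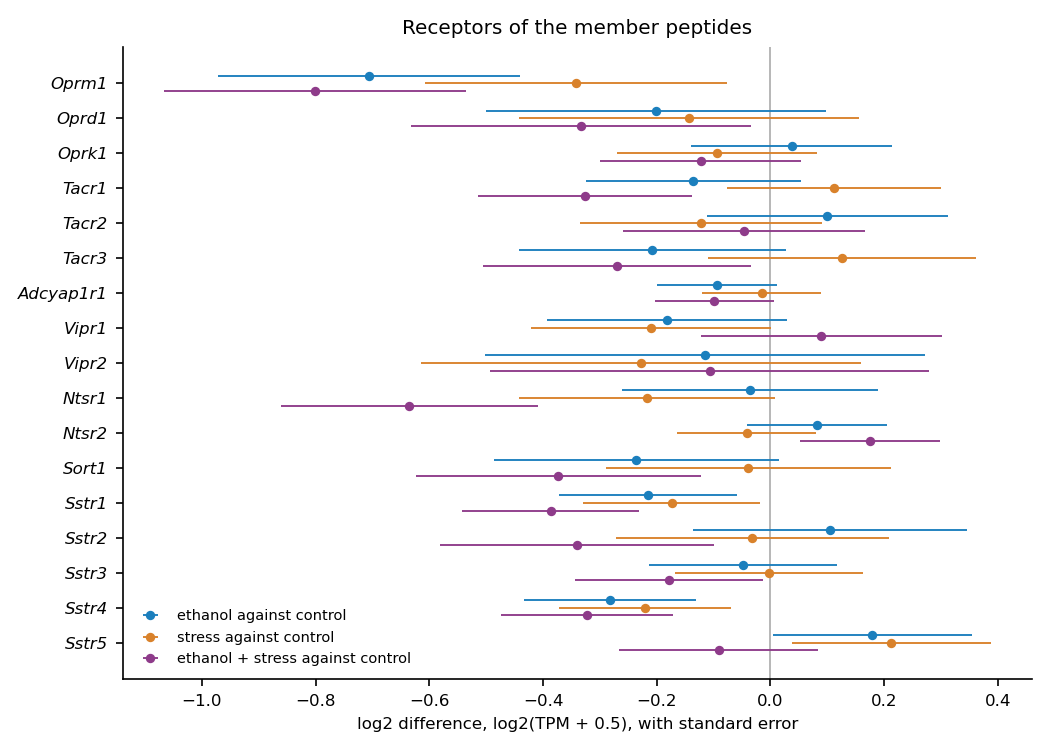
Difference of each receptor gene from control on the log2(TPM + 0.5) scale, with its standard error, for ethanol (blue), stress (orange) and ethanol + stress mice (purple). Oprm1 has the lowest values, -0.71 in ethanol and -0.80 in ethanol + stress mice, and Adcyap1r1 stays within 0.10 of 0.

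Enzymes that cut and finish the precursors were examined next. Cpe, which trims the basic residues, averaged 2271 TPM, the convertase gene Pcsk2 95.8, Pam, which makes the amidated end, 126, and the convertase gene Pcsk1 16.1 TPM. None of the 21 processing and degrading enzymes was called in any contrast by limma. At an unadjusted p under 0.05 there was 1 in ethanol + stress mice (5.37% of all genes) and 2 in the ethanol average (5.79%). The former was Ece1, an endothelin-converting enzyme that also degrades peptides, with a log2 difference of -0.81 (SE 0.26, adjusted p = 0.791). Cpd, a carboxypeptidase, had -0.36 (SE 0.15) in the ethanol average. Pcsk1 had -0.23 (SE 0.11) in the stress average, where none of the 21 enzymes had an unadjusted p under 0.05 in limma. The enzyme medians were 0.02, -0.02 and -0.13 in ethanol, stress and ethanol + stress mice.

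Of 15 dense core vesicle genes none was called by limma. At an unadjusted p under 0.05 there was 1 in ethanol mice (3.63% of all genes), 1 in the ethanol average (5.79%) and none in the other contrasts. Their medians were -0.12, -0.04 and -0.17 in the 3 groups, and 14, 11 and 13 of the 15 lay below 0. They too summed lowest in ethanol replicate 2 (1659 TPM) and ethanol + stress replicates 2 and 3 (1581 and 1693 TPM), and highest in ethanol + stress replicate 1 (2261 TPM) and ethanol replicate 3 (2276 TPM), with 2095 to 2109 TPM in the controls. Scg2, the secretogranin of these vesicles, had -0.21 (SE 0.08, adjusted p = 0.76 in limma) and Dtnbp1 0.16 (SE 0.08) in the ethanol average, and Chga, the chromogranin, had -0.46 (SE 0.24, adjusted p = 0.791) in ethanol + stress mice. Dtnbp1 and Chga did not reach an unadjusted p under 0.05 in these contrasts. Of the 37 other precursor genes 30 were tested and none was called in any contrast by limma, with 0 to 2 at an unadjusted p under 0.05 per contrast. Npy, a transmitter of interneurons, had -0.27 (SE 0.12, adjusted p = 0.791) in ethanol + stress mice. Adm had -0.60 (SE 0.21, adjusted p = 0.9999 in limma) in the stress average. Hcrt, with a mean of 0.196 TPM, was listed at 0 in all 3 control libraries and so passed the filter only through treated mice. Its difference in stress mice lay above 0, but its size depends on the 0.5 TPM added to each value and is not given.

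Covariation across the 12 libraries was computed for the 21 pairs of the 7 genes. The strongest pair was Tac1 with Cort, with Pearson's r = 0.638 (permutation p = 0.0239, adjusted p = 0.502) and Spearman's rho = 0.531 (permutation p = 0.0798, adjusted p = 0.52). Without the 2 libraries farthest from the median of Tac1 r was 0.426. None of the 21 pairs had an adjusted p under 0.05, and Tac1 with Cort was the single pair with an unadjusted permutation p of r under 0.05. Penk with Pdyn, the opioid pair, had r = -0.239 (permutation p = 0.447), and the tachykinin pair Tac1 with Tac2 had r = 0.418 (permutation p = 0.177).

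For each gene the 3 genes with the most similar pattern over the 12 libraries were sought among 14455 genes with a mean of at least 1 TPM, and their r is a description. Those named for Penk are Hpcal1 (0.953) and Camk2d (0.913). Tac1 was most like Ube2m (0.884), Crhbp, a binding protein of corticotropin-releasing hormone (0.884), and Clvs1 (0.868), and Nts most like Med29 (0.941), Ybx1 (0.933) and Gps1 (0.930). Pdyn followed Rnpepl1, Srl and Spire2 with r from 0.859 to 0.882, Tac2 followed Cyyr1, Dpp3 and Zfpl1 with 0.826 to 0.862, and Adcyap1 followed 9130023H24Rik, Kcns1 and Ift122 with 0.844 to 0.860. For Cort these were Gm47726 (0.892) and Gm3020 and Gm10409 (0.869 each), of which the last 2 share 1 set of values and are therefore uncertain.

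The libraries held 12050000 to 14950000 read pairs by the step of their low values. All 8 dentate granule cell markers, all 10 of CA1 and CA3 pyramidal cells and all 12 of interneurons passed the filter. So did all 10 striatum, 7 medial habenula, 8 thalamus and 8 choroid plexus markers, so passing does not tell these tissues apart. Choroid plexus markers ranged from 41.3 to 7257 TPM in sum and thalamus markers from 48.0 to 63.7 TPM. Interneurons make cortistatin and enkephalin, and their markers summed to 749 to 868 TPM in control and 739 to 762 TPM in ethanol + stress mice, with none called. In ethanol + stress mice, the group with the lowest Penk, 10 of these 12 markers lay below 0 (median -0.17 beside 0.02 for all genes), and 3 of 12 had an unadjusted p under 0.05 in limma, beside 5.37% of all genes. Their part in the Penk values was not tested. Single calls were made for C1ql2 of granule cells (-0.30, SE 0.09, lower in the ethanol average), Iyd of pyramidal cells (0.61, SE 0.19, higher in ethanol + stress mice), and Nr4a2 (-0.79, SE 0.23, lower in stress mice) and Cntn5 (0.34, SE 0.11, higher in the ethanol average) of the subiculum. Nr4a2 is also listed among the immediate early genes, of which 11 of 12 lay below 0 in stress mice. Of the subiculum markers 3 of 6 did.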

How the data were processed

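RNA-Seq values of the hippocampus of 12 mice were analysed, 3 per group. The deposited values are a signal, TPM per transcript that the authors made with kallisto and scaled between libraries (sums of 889222 to 1173650). The submitters' processing notes also name CASAVA, sleuth and mm10. Versions are not given in the sources used here. Of 115270 transcripts, 113580 matched GENCODE vM21 by identifier and were summed per gene, and the unmatched ones held 0.518% to 0.580% of a library. kallisto divides read pairs that fit several transcripts by an estimate. TPM give no depth directly. In genes with 1 transcript, however, low values were near multiples of what 1 read pair is worth, from which 12050000 to 14950000 read pairs per library were recovered, with 78.8% to 82.0% of such values within 0.1 of a whole read pair. Counting errors from them cover counting only.

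Genes and transcripts that reached 0.1 TPM in 6 or more of the 12 libraries entered limma 3.58.1 (R 4.3.3) as log2(TPM + 0.5) (lmFit, and eBayes with trend), in 1 model of the 4 groups without a replicate block. Fold changes on that scale understate those of low genes. Calls used an unadjusted p under 0.01, two-sided, and p values were adjusted by Benjamini-Hochberg over every feature tested. Correlations used 100000 permutations, with p values adjusted over 21 pairs. Tables were handled with pandas 2.3.3 and numpy 2.4.6 under Python 3.11.15, correlations with scipy 1.17.1, plots with matplotlib 3.10.9, and the tests were tried on simulated data.

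The members and the gene lists were chosen with earlier results of these data known. Named were the 7 genes, their tested transcripts, the called genes and up to 3 genes with the smallest p of each list, and the 3 most similar genes, of which 1 is not reported here. Other genes are named for their level, and Gpr151, Adcyap1r1 and the leading blood values were chosen after they were seen. Alternatives were a minimum of 1 TPM, no filter, pseudocounts of 0.1 and 1, median-of-ratios scaling, a common total, removal of the trend over transcript length, eBayes without trend, only the groups compared, a replicate block, and leaving out each library. Methylation libraries were not analysed here.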

Additional observations from a re-analysis of the deposited data

How the results depend on the processing

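Of 777 values of the 7 genes under the alternatives, 760 kept their call and moved by less than the spread between mice, 3 moved by more, 3 gained a call and 11 lost one. The called difference, Adcyap1 in the ethanol average, kept its sign, but 75 values of uncalled differences had the other sign (Tac2 in the stress average under 9 of 21 alternatives, Penk in ethanol mice under 7 of 16). All changes of call concerned Tac1 and Tac2 in ethanol mice and Adcyap1 and Tac1 in the ethanol average. Leaving out 1 library at a time gave 0 to 1 called members in ethanol mice, where the full data gave 0, and 0 to 1 in the ethanol average, where they gave 1. Removing the length trend gave 0 in the ethanol average. The cause was not tested. At the members' lengths that trend reached from -0.25 to 0.33 between libraries, the most for Tac2 and Cort. With a replicate block the counts of called members were unchanged, 1 in the ethanol average and 0 otherwise. Same-numbered libraries of different groups correlated at -0.30 to 0.28 (18 pairs), and differently numbered ones at -0.49 to 0.50 (36 pairs). Of the 12 libraries 2 correlated best with their own number. With 3 mice per group this cannot tell whether mice shared a litter or a batch.

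Over all genes the calls ranged from 69 to 198 in ethanol (125 in the main fit), 42 to 138 in stress (94), 114 to 763 in ethanol + stress (179), 48 to 140 for the interaction (85), 128 to 653 for the ethanol average (207) and 62 to 162 for the stress average (108). The 763 and 653 were reached without ethanol + stress replicate 1. Rescaling to a common total moved the median of all genes in ethanol + stress mice from 0.02 to -0.09. With 3 mice per group, the precision of the member differences is that of their 95% intervals.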
